A study of Homo sapiens with 8 samples.

Results

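Secreted Wnt antagonists were examined in DLD1, a human colorectal adenocarcinoma cell line with many methylated CpG islands. The members were the 10 genes DKK1, DKK2, DKK3, DKK4, SFRP1, SFRP2, SFRP3, SFRP4, SFRP5 and WIF1, chosen by name among the non-control probes of the arrays. The array annotation used 9 of these names as they stand, and SFRP3 was found there under its current symbol FRZB. The 10 genes had 12 probes of the 50599 on the array, because DKK3 and SFRP4 had 2 probes each. RNA was measured on 8 single-colour arrays in 4 groups of 2. Cells were transfected for 48 h with a control siRNA (siCONT) or with siRNA 1 or siRNA 2 against UHRF1 (siUHRF1), a factor that brings the maintenance DNA methyltransferase to newly replicated DNA. They were then given ethanol (mock) or TSA at 300 nM (trichostatin A, which inhibits histone deacetylases) for a further 24 h. All groups share the same line, medium and transfection reagent, and knockdown was transient. Each siUHRF1 group holds 1 array of each siRNA, so its spread is that between 2 siRNAs. The 2 siCONT arrays of an agent differed little more than the noise between spots of the same probe (1.13 and 1.11 times that noise, against 13.08 and 10.32 times for the siUHRF1 pairs). They were counted as 1 sample in means, and siCONT means are given without an SD.

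Wnt ligands signal by bringing a Frizzled receptor together with the coreceptor LRP5 or LRP6, which stabilises beta-catenin and lets it act with TCF/LEF factors in the nucleus. SFRP proteins and WIF1 bind the ligands outside the cell. DKK1, DKK2 and DKK4 instead bind LRP5 and LRP6, with the KREMEN receptors as partners, and DKK3 is a more distant relative whose part in Wnt signalling is less settled. SFRP, DKK and WIF1 genes are known for methylated, silent promoters in colorectal tumors.

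An expression level is the log2 processed intensity minus the 75th percentile of the same array, so that a level of 0 is the intensity 75% of probes do not exceed. A probe was read as detected when the extraction software marked it well above background. UHRF1 itself was checked first. Its level was 1.99 in siCONT mock, 0.16 ± 0.26 (SD, n = 2) in siUHRF1 mock, 1.03 in siCONT TSA and -1.85 ± 0.41 (SD, n = 2) in siUHRF1 TSA. With siRNA 1, 31.9% of the siCONT level was left under mock and 16.7% under TSA, and with siRNA 2 24.8% and 11.1%. All arrays lay on 1 slide and were scanned once, with the mock arrays in row 1 and the TSA arrays in row 2, so TSA and slide row cannot be told apart. The siCONT arrays lay in columns 1 and 2, siRNA 1 in column 3 and siRNA 2 in column 4. The siRNA and the slide column cannot be told apart either. The share of probes well above background ranged from 43.3% to 48.0% over the arrays, and no spot was saturated. Neither labels nor methods say whether the siCONT arrays came from separate cultures, and p-values then measure only the spread between these samples.

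Most of the antagonists were not detected in any group. Of the 12 probes 9, which held all probes of 7 of the 10 genes, were well above background on no array, which was so for 45.3% of all probes kept (22927 of 50579). No antagonist probe was well above background on all 8 arrays, as 39.3% of all probes were. The undetected genes were DKK2, DKK4, SFRP1, SFRP2, SFRP4, SFRP5 and WIF1. The intensity of DKK2 lay between 3.03 and 3.37, that of SFRP5 between 3.14 and 3.64, and that of WIF1 between 3.24 and 3.77. Each of these values, on 8 of 8 arrays, was a substitute that the software writes for spots not above background. The probe for SFRP1, a ligand-binding antagonist, was spotted 10 times on each array, and its mean intensity stayed between 3.01 and 3.85. None of its 77 usable spots was well above background, and 9 differed from background by the weaker test of the software, which asks only that a spot is positive and significant. Of these 9, 4 were among the 10 spots of the siRNA 1 array under TSA. The 2 SFRP4 probes stayed between 2.62 and 3.95 and between 3.08 and 3.58. At these signals a change between groups was not detectable, and absence of the transcript is not shown.

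By the weaker test, 5 of the 12 probes differed from background on no array, against 11.3% of all probes. A probe was counted on an array when most of its usable spots passed, which SFRP1 did on none. DKK4, an inhibitor of LRP5 and LRP6, passed it on 6 arrays with intensities of 3.03 to 7.26. SFRP2, a ligand-binding antagonist, also passed it on 6 arrays. Its intensities were 3.4 and 3.06 in siCONT mock, 6.87 and 3.13 with siRNA 1 and 2 under mock, 7.71 and 7.85 in siCONT TSA, and 6.6 and 8.95 with siRNA 1 and 2 under TSA. The extraction error of each of these values was about 3, and as levels, scaled to each array, all 4 TSA arrays (-4.5 to -4.19) lay above every mock array (-5.58 to -4.78), by less than that error in the case of siRNA 1. How many of all probes separate in this way was not counted. SFRP2 did not pass the detection filter and was not tested. Without that filter its fitted change for UHRF1 depletion plus TSA was 1.09 on the log2 scale (SE 0.28, limma adjusted p = 0.0479). It was of like size for TSA in siCONT cells (1.00, adjusted p = 0.0774), and 0.09 for UHRF1 depletion under TSA (adjusted p = 0.859).

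**Figure D1:**
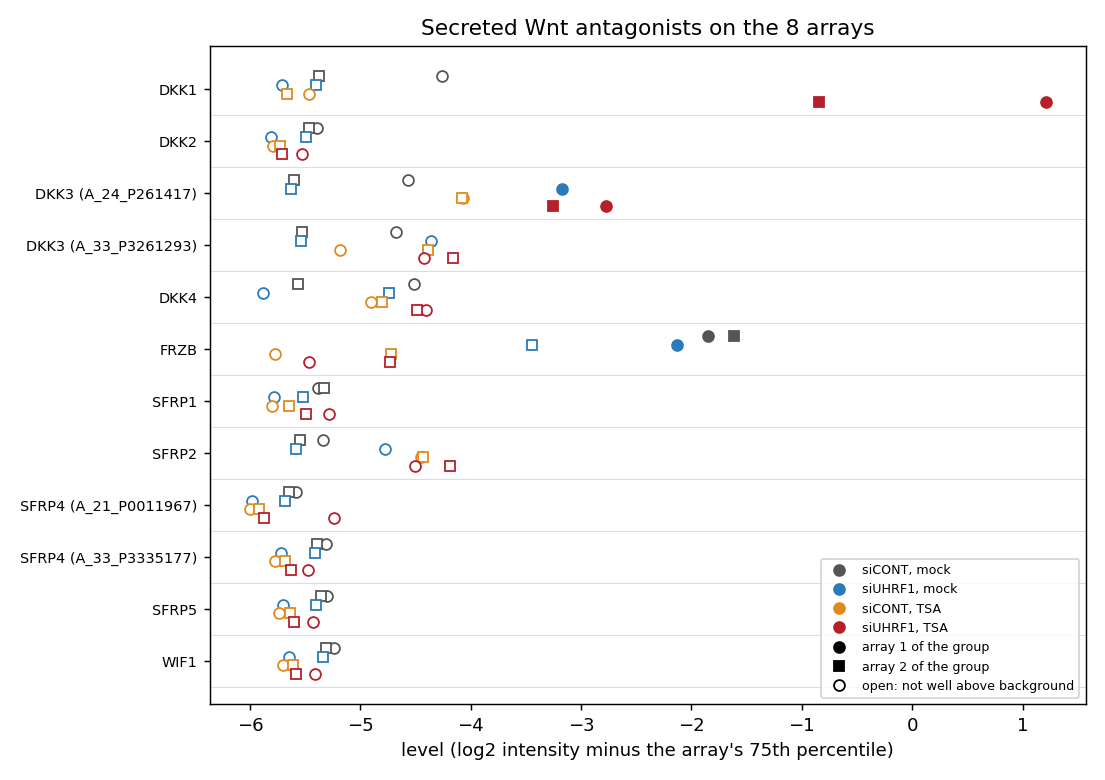
Level of each antagonist probe (log2 intensity minus the 75th percentile of the array) on the 8 arrays, coloured by group, with filled symbols for arrays where the probe was well above background. DKK1 is filled in the siUHRF1 TSA arrays alone, FRZB in mock arrays alone, and 9 of 12 probes have no filled symbol. Positions in different rows come from different probes and are not comparable.

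DKK1, an inhibitor that blocks LRP5 and LRP6, was detected on the 2 arrays of UHRF1 depletion plus TSA and on no other array. Its probe lies at chr10:54076687-54076746 on the plus strand (hg19). Its intensity was 7.16 and 3.45 in siCONT mock, 3.61 and 3.54 with siRNA 1 and siRNA 2 under mock, and 3.82 and 3.34 in siCONT TSA. Of these values, 7.16 and 3.82 passed the weaker test of the software, and the others were background substitutes. With UHRF1 depletion plus TSA it was 346.0 with siRNA 1 (extraction error 34.8) and 91.4 with siRNA 2 (extraction error 9.71). The lower of these arrays exceeded each of the other 6, and the groups do not overlap.

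DKK1 was at least 11.97-fold higher in UHRF1 depletion plus TSA than in siCONT mock, a mean over siRNAs whose own bounds were at least 24.32-fold (siRNA 1) and at least 5.896-fold (siRNA 2). The bound was at least 15.18-fold against siCONT TSA and at least 13.79-fold against UHRF1 depletion with mock. These bounds set the bright group against the lowest signal well above background on the dim arrays, or the probe's own signal where that is higher. The fitted log2 changes, which are not bounds, were 5.00 (SE 0.68, limma adjusted p = 0.00204) for the combination against siCONT mock, 5.75 (SE 0.68, adjusted p = 0.00651) against siCONT TSA and 5.74 (SE 0.68, adjusted p = 0.00168) against UHRF1 depletion with mock. DKK1 was tested there through the combination arrays alone. The SE pools all 4 groups, and in 3 of them DKK1 was not well above background, with mostly substitute values. Between the 2 siRNAs of the combination the SD was 1.45. These adjusted p values thus do not measure the spread between siRNAs. From the 2 compared groups alone the SE for the combination against siCONT mock was 1.16. With the siCONT arrays averaged to 1 sample the adjusted p values were 0.0207, 0.0712 and 0.00737, so that the change against siCONT TSA was no longer called, nor was it without siCONT TSA replicate 2 (5.64, adjusted p = 0.0523). With normexp, a model-based background correction, here with 50 added to each intensity, the 3 changes were 1.78, 1.95 and 2.02. They were still called. The added 50 shrinks fold changes of dim signals, so these sizes are not comparable with those of the main fit. By the methods' t-test the combination was not called (unadjusted p = 0.0501), and after Benjamini-Hochberg adjustment of that test none of the 3 changes was. Leaving out siRNA 1 or siRNA 2 under TSA gave 3.98 or 6.03 for the combination against siCONT mock. Each of these fits holds 1 combination array, without the spread between siRNAs, so only the sizes are given. Under either treatment alone DKK1 was not well above background and did not pass the detection filter. Without the filter the log2 difference was -0.74 for TSA in siCONT cells (limma adjusted p = 0.472) and -0.74 for UHRF1 depletion under mock (adjusted p = 0.558), both between groups not well above background.

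The interaction, which is the effect of UHRF1 depletion under TSA minus that under mock, was 6.48 on the log2 scale for DKK1 (SE 0.96, limma adjusted p = 0.0259). This value is no measured size, because DKK1 was not well above background in 3 of its 4 groups, where most of its values were background substitutes. It passed the filter through the combination arrays alone, and no bound can be given for the interaction. The interaction was 2.19 with normexp. With the siCONT arrays averaged the adjusted p was 0.295. Leaving out any 1 of the 4 siCONT arrays also ended the call, with changes of 5.93 to 7.04. 

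The 2 siRNAs differed in the level DKK1 reached. The level was 1.21 with siRNA 1 and -0.84 with siRNA 2, a difference of 2.04 on the log2 scale or 4.13-fold, so the group mean was 0.19 ± 1.45 (SD, n = 2). DKK1 was 1 of 429 probes (0.848% of 50579) that were well above background on both arrays of the combination and on no other. The median SD between the siRNAs among these probes was 0.25, and the SD of DKK1 was the 4th largest. Of the 429 probes, 246 were higher with siRNA 1. Residual UHRF1 under TSA was higher with siRNA 1 (16.7%) than with siRNA 2 (11.1%), and the part of this in the DKK1 difference was not tested.

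The promoter of DKK1 is shown because the study depleted a factor of CG methylation. The 250 bases before its start (GRCh38.p14, RefSeq, chr10:52314031-52314280, plus strand), 5′ to 3′ with CG dinucleotides in capitals, are given next, followed by those of FRZB (chr2:182866638-182866887, minus strand) and of SFRP5 (chr10:97772000-97772249, minus strand), which is among the undetected genes.
DKK1: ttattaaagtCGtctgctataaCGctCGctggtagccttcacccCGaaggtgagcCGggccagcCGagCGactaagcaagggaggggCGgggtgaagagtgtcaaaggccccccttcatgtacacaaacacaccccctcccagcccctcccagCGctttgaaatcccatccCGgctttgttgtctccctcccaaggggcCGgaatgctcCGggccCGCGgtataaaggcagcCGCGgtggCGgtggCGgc
FRZB: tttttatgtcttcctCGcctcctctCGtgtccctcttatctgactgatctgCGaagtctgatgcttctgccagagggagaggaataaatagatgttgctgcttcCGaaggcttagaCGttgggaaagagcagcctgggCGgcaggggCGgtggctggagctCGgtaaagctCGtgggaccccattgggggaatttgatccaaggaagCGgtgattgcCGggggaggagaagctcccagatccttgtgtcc
SFRP5: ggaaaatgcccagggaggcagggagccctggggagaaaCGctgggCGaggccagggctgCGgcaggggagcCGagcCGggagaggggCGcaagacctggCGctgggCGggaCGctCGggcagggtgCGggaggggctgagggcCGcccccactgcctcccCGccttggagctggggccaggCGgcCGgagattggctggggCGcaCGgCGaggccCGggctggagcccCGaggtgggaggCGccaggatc
Promoter windows were at hand for 6 members that could be shown. Counted with the 50 bases after the start, the window of DKK1 held 20 CG dinucleotides, FRZB 17, SFRP2 15, SFRP4 23, SFRP5 28 and WIF1 29, against a median of 14 over 35116 RefSeq windows of 300 bases. The window of the antagonist that rose thus lay within the range of the others. The TCF/LEF words searched, on both strands, were CTTTG followed by AA, by AT, by TA or by TT. DKK1 held 2 of them. One starts 95 bases before the start and ends in AA, and the next starts 76 bases before it and ends in TT. The other 5 windows held none. At least 1 such word was found in 13.8% of all windows and at least 2 in 1.58%. A match is a description of the letters and not of binding.

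**Figure D2:**
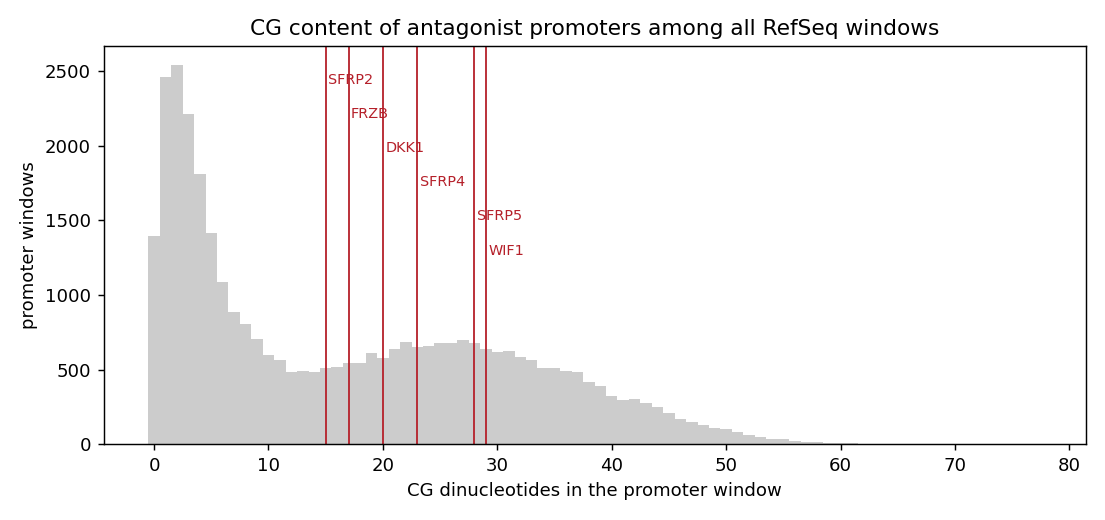
Number of CG dinucleotides in 300-base RefSeq promoter windows (grey bars, 35116 windows), with red lines for 6 antagonists. The 6 lie between 15 and 29, above the median of 14, and DKK1, which rose, sits at 20 between FRZB and SFRP4.

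FRZB (SFRP3), a ligand-binding antagonist, ran the other way and was detected in mock cells but not under TSA. Its probe lies at chr2:183699620-183699679 on the minus strand (hg19). Its intensity was 38.1 and 46.9 in siCONT mock, 43.2 with siRNA 1 and 13.8 with siRNA 2 under mock, 3.08 and 6.41 in siCONT TSA, and 3.41 and 6.16 with siRNA 1 and 2 under TSA. Every mock array was higher than every TSA array, and the siRNA 2 mock array was not well above background. The share of all probes that separate mock from TSA arrays in this way was not counted, so nothing is read from the separation. FRZB was 1 of 134 probes (0.265%) detected on both siCONT mock arrays and on no TSA array.

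FRZB was at least 4.03-fold lower in siCONT TSA than in siCONT mock and at least 3.52-fold lower in UHRF1 depletion plus TSA. The fitted log2 changes were -3.52 (SE 0.54, limma adjusted p = 0.00457) and -3.36 (SE 0.54, adjusted p = 0.00367). With the siCONT arrays averaged the adjusted p values were 0.0865 and 0.027, and the change with TSA in siCONT cells was no longer called. With normexp the changes were -0.82 and -0.76 (limma adjusted p = 0.00103 and 0.000922) and fell short of 2-fold. The 50 added there is more than the processed intensity of FRZB on any array. That setting thus cannot decide whether the fall reaches 2-fold. The log2 difference of FRZB for UHRF1 depletion under mock was -1.06 (SE 0.54, adjusted p = 0.233), which did not pass the test. The interaction was 1.21 (SE 0.76, adjusted p = 0.332).

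DKK3 was the third gene with signal, and its 2 probes differed. The probe at chr11:11984915-11984974 gave intensities of 5.78 and 2.95 in siCONT mock, 20.9 with siRNA 1 and 3.02 with siRNA 2 under mock, 10.0 and 9.97 in siCONT TSA, and 22.0 and 17.1 with siRNA 1 and 2 under TSA. It was well above background on both combination arrays and on the siRNA 1 mock array, where its intensity was above that of siRNA 2 in the combination, so the groups overlap. The probe at chr11:11986163-11986222 stayed between 3.1 and 9.19 and was well above background on no array. For the first probe the fitted change for UHRF1 depletion plus TSA was 2.07 (SE 0.78, limma adjusted p = 0.0703), with a bound of at least 1.31-fold, and it was not called. Leaving out the siUHRF1 mock array of either siRNA, which is in neither group compared and enters only through the spread, gave an adjusted p of 0.00945 and a call. With TSA in UHRF1-depleted cells it was 1.39 (adjusted p = 0.204), and with UHRF1 depletion under TSA 1.07 (adjusted p = 0.375).

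**Figure D3:**
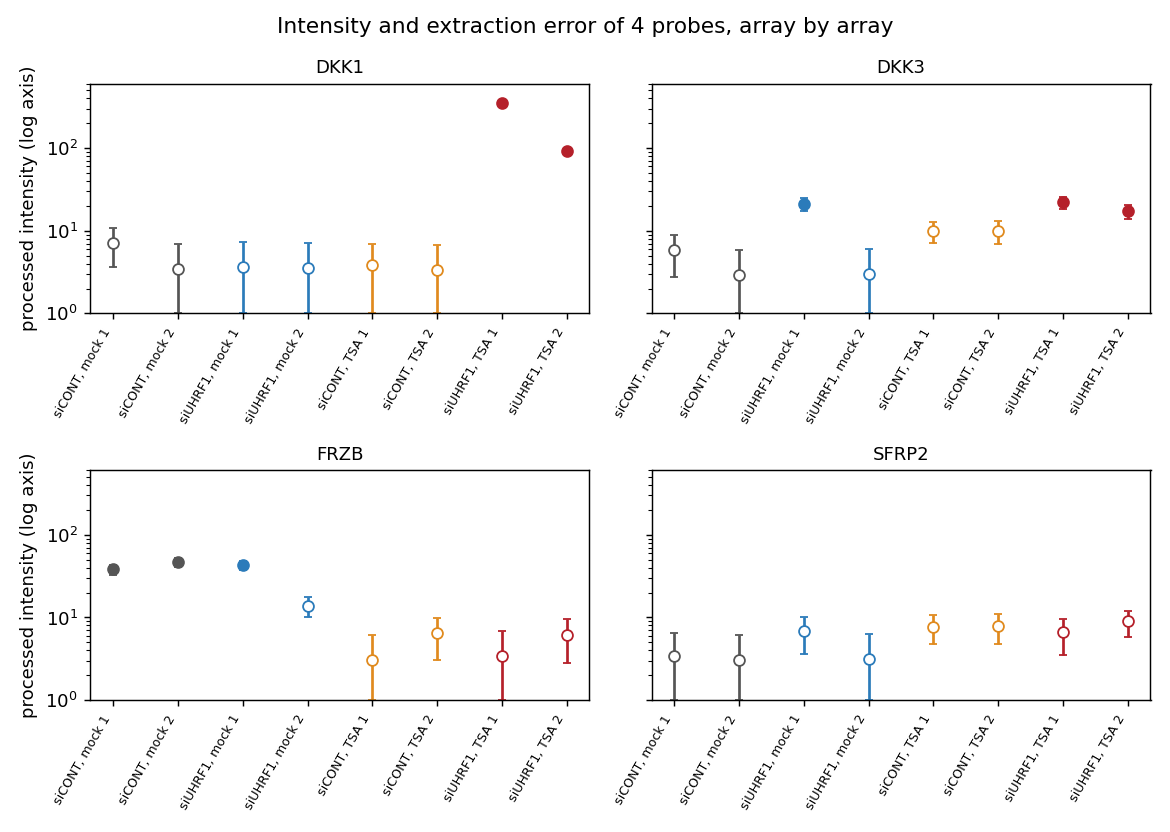
Processed intensity (log axis) of DKK1, DKK3 (first probe), FRZB and SFRP2 on each array, with the extraction error as bars, cut at 1 where they would go lower, and open symbols where a probe was not well above background. DKK1 reaches 346.0 and 91.4 in the combination, FRZB is at 38.1 to 46.9 in siCONT mock and at 3.08 to 6.41 under TSA in siCONT cells.

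Counts of antagonist probes called were read against all probes tested by the same rule (limma adjusted p under 0.05 and at least 2-fold). Only probes well above background on both arrays of a compared group were tested. DKK1 was detected in the combination alone, and FRZB on both arrays of siCONT mock alone. The filter thus favoured a difference of each from the dim groups, and nothing is read from their counts. It did not fix a call, as DKK3 passed it through the combination arrays and was not called. For UHRF1 depletion under mock, 0 of 1 antagonist probes (FRZB) was called, against 4.12% of all tested probes and 0.0223% with siCONT arrays averaged. For TSA in siCONT cells 1 of 1 (FRZB, lower) was called, against 18.6%, and 0 of 1 with siCONT averaged, against 1.56%. For UHRF1 depletion plus TSA 2 of 3 were called (DKK1 higher, FRZB lower), against 25.6%, and the same 2 with siCONT averaged, against 15.4%. For UHRF1 depletion under TSA 1 of 2 (DKK1) was called, against 8.26%, and 0 with siCONT averaged, against 0.692%. For TSA in UHRF1-depleted cells 1 of 2 (DKK1) was called in both fits, against 20.7% and 17.6%. For the interaction 1 of 3 (DKK1) was called, against 4.89%, and 0 with siCONT averaged, where 0% of the 24578 probes were called and 2172 had an unadjusted p under 0.05. Comparisons that share the siCONT mock arrays are not independent. The median change over all tested probes was -0.14 for the combination and -0.11 for TSA in siCONT cells.

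**Figure D4:**
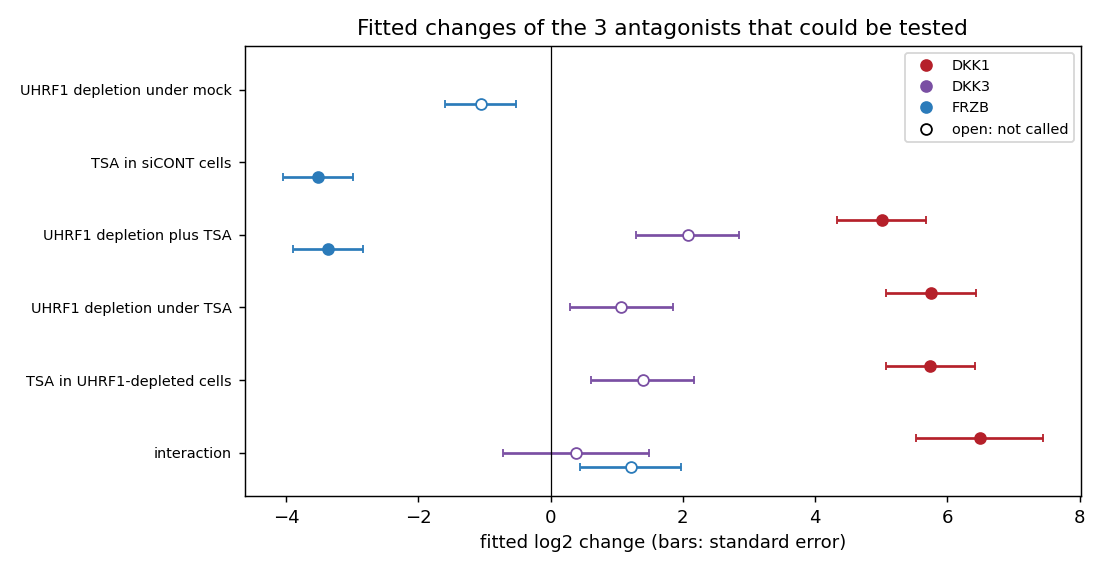
Fitted log2 changes of DKK1, DKK3 and FRZB in the 6 comparisons (bars, standard error from limma; filled, called). DKK1 is at 5.00 to 6.48 in the 4 comparisons that hold the combination, FRZB at -3.52 and -3.36, and the fits of dim groups are not bounds.

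The receptors that the DKK proteins act through were measured on all arrays. LRP5 fell in UHRF1 depletion plus TSA by 2.08 on the log2 scale (SE 0.16, limma adjusted p = 0.000313), from a level of 2.13 in siCONT mock to 0.05 ± 0.14 (SD, n = 2). It was also lower with TSA in siCONT cells (-1.45, adjusted p = 0.00165), although not with siCONT averaged (adjusted p = 0.111). The log2 difference of LRP6 in the combination was -0.94 (adjusted p = 0.0104), short of 2-fold. It was 0.22 for KREMEN1 (adjusted p = 0.689) and -0.82 for KREMEN2 (adjusted p = 0.123), and neither passed the test. With TSA in siCONT cells KREMEN2 was called lower, although not with siCONT averaged. In the combination 14.6% of all tested probes rose and 11% fell (9.74% and 5.68% with siCONT averaged), and each list count is to be read beside these shares. Over the receptor list 1 of 14 tested genes rose (FZD7, a Frizzled receptor, 1.41) and 1 fell, with a median of 0.08, and FZD7 was not called with siCONT averaged (adjusted p = 0.0953).

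Of 19 ligands, which SFRP proteins and WIF1 bind, 11 were tested, 6 rose and 0 fell in the combination, against 14.6% and 11% of all tested probes, and 4 rose with siCONT averaged. Of the 6, 5 were not well above background in siCONT mock and were tested through the combination arrays alone, where they are high, so the count says nothing of the list. WNT10A, detected on all arrays, rose by 1.62 (SE 0.16, limma adjusted p = 0.00063). WNT5A, a ligand of noncanonical signalling, was at least 18.71-fold higher, but its siRNAs differed (0.83 ± 1.82, SD, n = 2) and it was not called with siCONT averaged (adjusted p = 0.134). With TSA in siCONT cells WNT5A was already at least 8.693-fold higher than in siCONT mock, although not called. WNT10A was called higher there too, but not with siCONT averaged.

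Inside the cell, 3 of 20 tested genes of the destruction complex list rose and 1 fell (2 and 1 with siCONT averaged), near or below the shares of all probes, and 2 of the 3 were not detected in siCONT mock. DACT3, an inhibitor that acts on Dishevelled, was at least 15.23-fold higher in the combination (fit 4.68, SE 0.40, limma adjusted p = 0.000464), and CSNK1D, a casein kinase, fell by 1.31 (adjusted p = 0.000865). With TSA in siCONT cells DACT3 was already at least 3.001-fold higher than in siCONT mock. It was called there and for UHRF1 depletion under TSA, although in neither with siCONT averaged. Of 12 TCF/LEF and beta-catenin genes 3 rose, and 0 were called with siCONT averaged. The corepressor TLE2 had the highest fitted change (3.76, adjusted p = 0.01), but only 1 of 2 siCONT mock arrays detected it. TLE2 and TLE4, another of the 3, were also called higher with TSA in siCONT cells, although not with siCONT averaged. Of 6 tested R-spondin and secretion genes 1 fell (LGR6, an R-spondin receptor, -1.22), and 0 with siCONT averaged. LGR6 was also called lower with TSA in siCONT cells, although not with siCONT averaged. Of 6 tested genes in the list of other antagonists 1 fell, the membrane ubiquitin ligase RNF43 (-1.05, adjusted p = 0.00386), and 0 with siCONT averaged. Of 17 tested Wnt targets 0 rose and 3 fell, RNF43 again among them and 2 with siCONT averaged, against 11% of all probes that fell, with a median of -0.01. By the brightest probe of each gene ASCL2, a stem cell transcription factor, fell most (-1.59, SE 0.21, adjusted p = 0.00196), and 1 of 3 probes of EPHB2 fell slightly more (-1.64). ASCL2, RNF43 and EPHB2 were also called lower with TSA in siCONT cells, so their falls are not particular to the combination. With UHRF1 depletion under mock ASCL2 was called higher. None of these calls held with siCONT averaged.

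**Figure D5:**
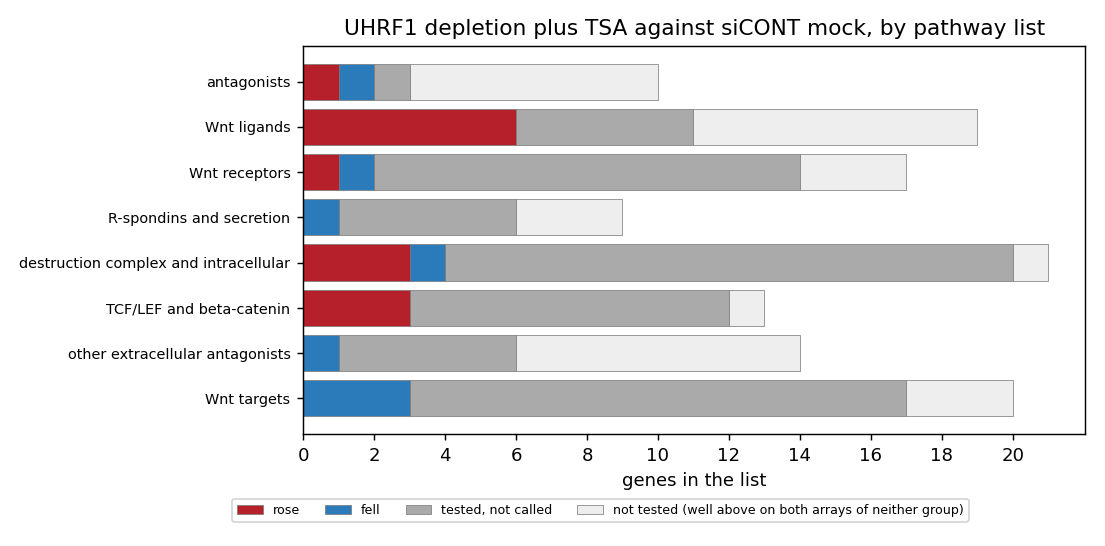
Genes of each Wnt pathway list that rose, fell, were tested without a call or were not tested in UHRF1 depletion plus TSA against siCONT mock. Wnt ligands have 6 rises, 5 of them of genes not detected in siCONT mock, and no fall, Wnt targets 3 falls and no rise, and antagonists 1 of each.

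Some marker genes of other cell types were higher in the combination, and some of them already in groups where DKK1 was not detected. All 8 epithelial markers were well above background on all arrays and 0 were called in the combination. Of 8 stromal markers 0 were detected on all arrays, COL1A2, COL3A1 and POSTN were detected on none, and COL1A1 and THY1 rose in the combination. DCN and LUM were detected on 1 combination array each. PDGFRB went the other way, from a level of -2.568 in siUHRF1 mock to -4.125 in the combination. There it was not detected and was at least 1.966-fold lower, and its level in siCONT mock was -3.27. The summed stromal intensity, relative to the 75th percentile, was 0.265 to 0.304 in siCONT mock, 0.27 to 0.37 in siUHRF1 mock, 0.529 to 0.657 in siCONT TSA and 0.992 to 1.65 in the combination, and COL1A1 also rose with TSA in siCONT cells. Endothelial markers summed to 0.147 to 0.175, 0.373 to 0.515, 0.945 to 0.964 and 1.59 to 1.71 in the same order. VWF rose with UHRF1 depletion under mock, with TSA in siCONT cells and in the combination, and PECAM1 was detected on no array. CDH5 changed by 0.666 in the combination (limma adjusted p = 0.0189), short of 2-fold. Its level there was -2.938, against 0.513 for VWF, so the rise of the endothelial sum was mainly that of VWF. COL1A1, THY1 and VWF were not well above background in siCONT mock. They were tested through the groups where they are high, so their calls say nothing of the marker lists. The part of the marker genes in the result for DKK1 was not tested.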

How the data were processed

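RNA of DLD1 cells was hybridised to Agilent one-colour arrays. Each deposited scanner file gives a linear intensity per spot, which the authors extracted with Agilent Feature Extraction 10.7 (10.7.3.1 in the file headers; annotation build hg19), background-subtracted and not scaled between arrays. The deposited table of the series holds the same intensity per probe and was used as an alternative. The authors' normalization is not given in the sources used here. Control and outlier spots were left out, replicate spots were averaged, and 20 probes with no usable spot on some array were dropped. The log2 intensity minus the 75th percentile of the array was fitted with limma 3.58.1 in R 4.3.3, with 4 group means over 8 arrays (4 residual and 2.17 prior degrees of freedom). The averaged fit had 2 residual degrees of freedom. Calls needed a Benjamini-Hochberg adjusted p under 0.05 over all tested probes and at least 2-fold. Tests were two-sided, and the code was tested on simulated data. Transcript accessions of 28174 probes (55.7%) matched RefSeq, and the rest were left under their array names. The brightest probe stood for a gene of a list. All antagonist probes were described. Of each other list the largest rise and fall called in the combination were named, with LRP5, LRP6, KREMEN1 and KREMEN2. Genes with a like pattern were to be named only for antagonists detected on all arrays, and there were none. The members and lists were chosen with earlier results of these data known. Alternatives were other scalings, background correction, filters, averaging of siCONT arrays, a replicate block, the t-test of the methods and leaving out each array. The small number of arrays (2 per group) limits the precision. A marker list of 1 further cell type is not reported here.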

Additional observations from a re-analysis of the deposited data

Results flagged for a closer look

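The interaction term for DKK1 (TSA effect in UHRF1-depleted minus siCONT cells) was fitted at 6.48 on the log2 scale (SE 0.96, limma adjusted p = 0.0259). DKK1 was not well above background in 3 of the 4 groups, so this is neither a measured size nor a bound. Over its alternatives the adjusted p ran from 0.0191 to 0.295, and the change from 2.19 to 7.51. Groups of 2 arrays were too small for a search for outlying samples.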

How the results depend on the processing

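Of 210 recomputed changes of DKK1, DKK3 and FRZB, 186 kept direction and call, 16 lost the call, 5 gained it and 3 reversed. The 186 include changes not called in the main fit that stayed so, as all 18 of FRZB for UHRF1 depletion under mock. They also include fits without an array outside the compared groups, where the change itself could not move. The total therefore does not measure how stable the calls are. The DKK1 interaction lost its call in 6 of 16 alternatives. The reversals were the DKK3 interaction, at -0.04 with quantile normalization, -0.13 without siCONT mock replicate 1 and -0.84 without siUHRF1 mock replicate 2, none of them called, and without single arrays it ran from -0.84 to 1.62. With normexp background correction 0 antagonist probes were called for TSA in siCONT cells and 1 (DKK1) for UHRF1 depletion plus TSA. FRZB kept an adjusted p under 0.05 there and fell short of 2-fold, which the 50 added to each intensity makes hard to reach. With the siCONT arrays averaged, 0 were called for TSA in siCONT cells, for UHRF1 depletion under TSA and for the interaction. By the methods' t-test 1 (FRZB) was called for the combination and 2 (DKK1 and DKK3) for UHRF1 depletion under TSA. After Benjamini-Hochberg adjustment of that test 0 were called in the combination, in UHRF1 depletion under TSA and in TSA in UHRF1-depleted cells. Without the filter on dim probes 2 (DKK1 and FRZB) were called for TSA in UHRF1-depleted cells and 0 for the interaction. Leaving out each array gave 0 to 0 calls for UHRF1 depletion under mock, 1 to 1 for TSA in siCONT cells, 2 to 3 for the combination, 0 to 1 for UHRF1 depletion under TSA, 1 to 2 for TSA in UHRF1-depleted cells and 0 to 1 for the interaction. Calls changed without siCONT TSA replicate 2 (UHRF1 depletion under TSA), without siUHRF1 mock replicate 1 (TSA in UHRF1-depleted cells), without siUHRF1 mock replicate 1 or 2 (the combination, with DKK3 added) and without any siCONT array (interaction). The cause was not tested. Without 1 combination array the spread between siRNAs leaves that group, so calls in those fits do not support either siRNA. With only probes well above background on all arrays no antagonist was left to test.

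The replicate number pairs arrays by siRNA only in the siUHRF1 groups (r = 0.34 between their differences, and -0.06 to 0.07 for other pairs of groups). With a replicate block 3 antagonist probes were called in the combination, with DKK3 added (adjusted p = 0.0344), and the other counts of antagonist probes stayed at 0, 1, 1, 1 and 1. Over all probes the block moved the interaction from 1202 to 676 calls. Signal close to background limits all 12 probes, 9 of them on every array, as do 2 arrays per group.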
